A study of Homo sapiens with 12 samples.

Results

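The genes described here are 10 that the extracellular signal-regulated kinase (ERK) pathway is known to switch on: the phosphatases DUSP4, DUSP5 and DUSP6, the inhibitors SPRY2, SPRY4, SPRED1 and SPRED2, the pleckstrin homology-like domain gene PHLDA1, and the transcription factors ETV4 and ETV5. They are defined by a fixed list of names, which was drawn up with earlier results of these data known, and all 10 were found among the 33514 gene symbols of the count tables. Their change with cetuximab was read in each line and replicate as a measure of ERK pathway output.

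The data came from droplet single-cell RNA sequencing (scRNA-seq, 3′ chemistry) of SCC1, SCC6 and SCC25, which are established lines of human head and neck squamous carcinoma (HNSCC) and which the study chose as cetuximab-sensitive. Cetuximab, a therapeutic antibody against the receptor EGFR, was given at 100 nM every day for 5 days, and control cultures received the vehicle PBS (phosphate-buffered saline). There were 2 replicates in each of the 6 groups, 12 samples in all. No group carried a genetic change made for the study, and each line is a single tumour-derived culture, so that differences between lines are differences between single models.

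The receptor signals through RAS, RAF and MEK to ERK, and active ERK turns on genes that then damp the same pathway. DUSP4 and DUSP5 act on ERK in the nucleus and DUSP6 acts on it in the cytoplasm, each by removing the activating phosphates. Sprouty (SPRY) and Spred (SPRED) proteins act further up, between the receptor and RAF. PHLDA1 is a growth factor-induced gene often included in MEK output signatures, and ETV4 and ETV5 are ETS-family factors whose transcription follows ERK activity, so that the mRNA of these genes is widely used as a reading of how active the pathway is.

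The tables held 23914 cells, 961 to 2854 per sample, with 57057402 to 112170073 unique molecular identifiers (UMIs) per sample. The median cell held 24078.5 UMIs in SCC6 cetuximab replicate 1 and 50156 in SCC6 cetuximab replicate 2, and 31947.5 to 54864 in the other 10 samples. None of the 11 squamous markers was at 0 UMIs in any sample, and their summed level ran from 1228 to 14571 CPM (counts scaled to a library of 1000000 UMIs). The basal keratins KRT5 and KRT14 were nearly absent from SCC6, with a UMI in 1.17% to 4.21% and 0.452% to 1.66% of cells thinned to 15000 UMIs, whereas in each SCC1 and SCC25 sample at least 82.9% and 98.2% of cells had one. Of the 8 markers of other cell types, PTPRC, CD3E, ALB and HBB were each found in at most 0.120% of thinned cells and PECAM1 in at most 0.320%, while CD68 was found in 4.63% to 87.1%, COL1A1 in 1.32% to 24.7% and COL3A1 in 0% to 8.28%. Between 3 and 10 cell barcodes occurred in both replicates of a group, and 1 to 13 in samples of different groups. UMI counts were added up per sample, and levels are given as CPM scaled by TMM factors. In such sums, fewer cells that express a gene and less RNA of it per cell cannot be told apart. The 3′ tags count molecules whatever the transcript length. CPM levels are compared between samples, and genes are set beside each other only as shares of UMIs or of cells with a UMI.

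In SCC6, PHLDA1 and DUSP4 fell with cetuximab, and all 10 genes had a fitted fold change below 0, as did 48.5% of all genes tested. Of the 10, 7 were lower in both pairs of equal replicate number and 3 were mixed. PHLDA1, at chromosome 12 from 76025447 to 76031776 (GRCh38.p14), stood at 762 and 168 CPM in PBS replicates 1 and 2 and at 25.5 and 40.7 CPM in cetuximab replicates 1 and 2. Both treated samples lay below both untreated ones, although the untreated samples also lay far apart. The log2 fold change was −3.81 ± 0.60 (SE), with an edgeR FDR of 0.0113. DUSP4, at chromosome 8 from 29333064 to 29350684, was at 121 and 46.0 CPM untreated and at 10.5 and 20.7 CPM treated, again with no overlap. Its fitted difference was −2.42 ± 0.48 on the log2 scale, with an edgeR FDR of 0.0259. These 2 of the 10 genes passed the FDR threshold of 0.05. Of the 17897 genes tested, 3.81% passed, and 1.3% passed as lower.

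The replicate numbers were taken to pair the samples, on the basis of a correlation within these data. With the number as a block within each line 5 of the 10 genes fell in SCC6, against a background of 20.1% of genes called and 10.1% lower. DUSP4 (FDR 0.0138) and PHLDA1 (FDR 0.0070) were joined by DUSP5, ETV4 and ETV5 in this fit. DUSP5, at chromosome 10 from 110497907 to 110511533, was at 57.7 and 25.0 CPM in the PBS replicates and at 4.57 and 13.0 CPM in the cetuximab replicates. Every treated value of DUSP5 was under every untreated one. The blocked log2 fold change was −2.27 ± 0.58 (FDR 0.0281), against −2.23 ± 0.79 (FDR 0.148) without the block.

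Both ETS factors moved the same way in SCC6 but by less. ETV4, at chromosome 17 from 43527846 to 43546340, was at 21.9 and 19.5 CPM untreated and at 4.31 and 8.42 CPM treated. The groups did not overlap for either factor. The blocked log2 fold change of ETV4 was −1.77 ± 0.25 (FDR 0.0036), and without the block it was −1.70 ± 0.46 (FDR 0.0736). ETV5, at chromosome 3 from 186046314 to 186109089, was at 14.4 and 16.0 CPM untreated and at 5.86 and 11.3 CPM treated. The blocked value for ETV5 was −0.89 ± 0.19 (FDR 0.0155), and the value without the block was −0.82 ± 0.44 (FDR 0.339).

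SPRY4, at chromosome 5 from 142310430 to 142325021, restrains signalling upstream of RAF and was rare in SCC6. It was at 1.16 and 0.446 CPM in the PBS replicates and at 0.116 and 0.277 CPM in the cetuximab replicates, which rest on 97, 41, 9 and 25 UMIs. The 4 values of SPRY4 did not overlap between the groups, but its log2 fold change of −2.00 ± 0.71 did not pass (FDR 0.152, and 0.0525 with the block). With DESeq2, SPRY4 passed at an FDR of 0.0465, and DUSP4, DUSP5, PHLDA1 and ETV4 passed as well, 5 of the 10 where 9.34% of all genes were called.

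The other inhibitors and DUSP6 did not pass in SCC6 in either fit. SPRY2 was at 13.7 and 4.10 CPM in the PBS replicates and at 5.76 and 5.14 CPM in the cetuximab replicates, so that the treated values lay between the untreated ones. SPRED1, at chromosome 15 from 38252836 to 38357249, was at 8.02 and 4.33 CPM untreated and at 6.47 and 5.07 CPM treated, and its treated values also lay inside the untreated range. SPRED2, at chromosome 2 from 65307175 to 65432599, was at 8.44 and 6.65 CPM untreated and at 6.77 and 5.31 CPM treated, a log2 fold change of −0.32 ± 0.25 (FDR 0.534). DUSP6, the cytoplasmic phosphatase of ERK, was at 11.2 and 16.0 CPM untreated and at 8.22 and 18.5 CPM treated. The fold change of DUSP6 was −0.02 ± 0.36 on the log2 scale (FDR 0.998), and the untreated values lay inside the treated ones.

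**Figure D1:**
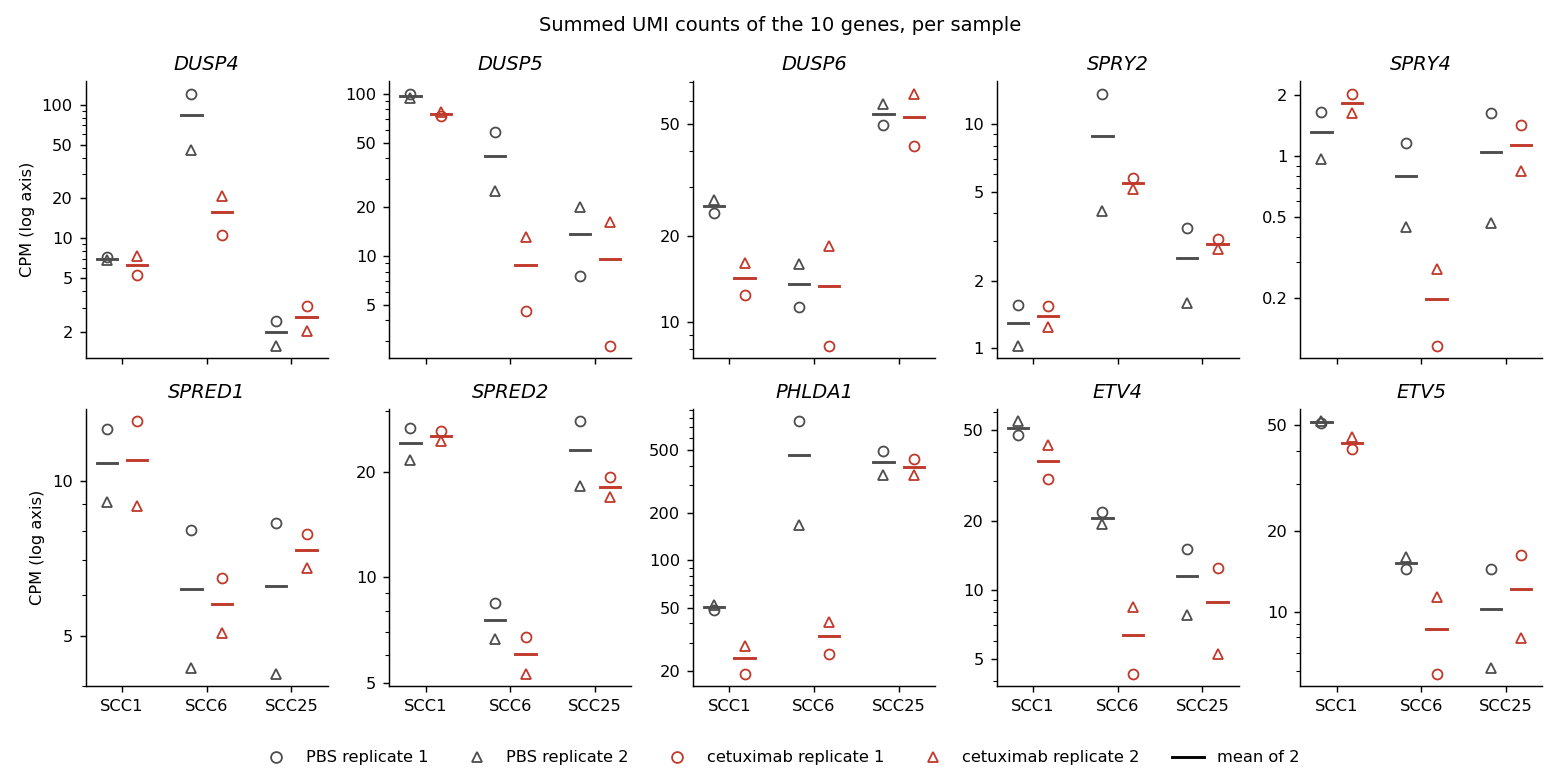
CPM of each of the 10 genes (log axis, a separate scale for each gene) in the 12 samples, with PBS in grey and cetuximab in red, circles for replicate 1, triangles for replicate 2 and a line for the mean of 2. In SCC6 the treated values of DUSP4, DUSP5, SPRY4, PHLDA1, ETV4 and ETV5 all lie below the untreated ones, whereas in SCC25 no gene separates the groups.

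The size of the fall in SCC6 depended on which library was left out. Without PBS replicate 1, which held the highest PHLDA1, DUSP4 and DUSP5 of that line, the log2 fold change was −2.35 for PHLDA1 (edgeR FDR 0.0623) and −1.56 for DUSP4 (FDR 0.205). Without cetuximab replicate 1, which had the fewest UMIs per cell, it was −3.52 for PHLDA1 (FDR 0.119) and −2.01 for DUSP4 (FDR 0.206). Both genes passed without PBS replicate 2 (FDR 0.0020 for PHLDA1 and 0.0149 for DUSP4) and without cetuximab replicate 2 (FDR 0.0438 and 0.0463). The sign was negative for both genes in all 4 cases.

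In SCC1, DUSP6 fell when the replicates were blocked and no other gene of the 10 passed. DUSP6, at chromosome 12 from 89347235 to 89352501, was at 24.3 and 26.8 CPM in the PBS replicates and at 12.4 and 16.1 CPM in the treated ones. The groups did not overlap. Its log2 fold change was −0.85 ± 0.18 with an edgeR FDR of 0.0401 under the block, where 4.45% of all genes were called and 1.99% were lower, and −0.84 ± 0.37 with an FDR of 0.550 without the block. Without the block 0 of the 10 genes were called by edgeR, with a background of 0.0168%, 1 had an unadjusted p under 0.05, and DESeq2 called 0, where it called 1.53% of all genes.

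PHLDA1 had the largest fitted decrease of the 10 in SCC1, without passing the test. It was at 48.8 and 52.0 CPM untreated and at 19.2 and 28.6 CPM treated, which is −1.08 ± 0.55 on the log2 scale (edgeR FDR 0.645, blocked FDR 0.283). The groups of PHLDA1 did not overlap. ETV4 was at 47.6 and 54.5 CPM in the PBS replicates and at 30.5 and 42.9 CPM in the cetuximab replicates (log2 fold change −0.48 ± 0.45). ETV5 was at 50.7 and 51.6 CPM untreated and at 40.7 and 45.0 CPM treated (−0.26 ± 0.44). DUSP5 was at 100.0 and 94.2 CPM untreated and at 73.0 and 76.9 CPM treated (−0.37 ± 0.75). In all of DUSP5, DUSP6, PHLDA1, ETV4 and ETV5 the treated SCC1 samples lay below the untreated ones.

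The remaining genes had overlapping groups in SCC1. DUSP4 was at 7.21 and 6.82 CPM untreated and at 5.30 and 7.40 CPM treated, and the 4 values of SPRED1, SPRED2 and SPRY2 were likewise mixed, with log2 fold changes of 0.02, 0.07 and 0.11. SPRY4 was higher in both pairs, at 1.66 and 0.974 CPM untreated and 2.04 and 1.63 CPM treated, but the second treated value was below the first untreated one.

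In SCC25, 0 of the 10 genes passed in the edgeR fit, with the block or with DESeq2, and 0 had an unadjusted p under 0.05. The background was 0% of genes called without the block, 0.978% with it and 0.564% with DESeq2. PHLDA1 stood at 494 and 350 CPM in the PBS replicates and at 438 and 349 CPM in the cetuximab replicates, a log2 fold change of −0.10 ± 0.54. These treated values lay between or beside the untreated ones. DUSP6 was at 49.4 and 58.9 CPM untreated and at 41.6 and 63.8 CPM treated (−0.04 ± 0.36), and here too the groups overlapped.

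DUSP5 in SCC25 followed the replicate number more than the treatment, at 7.54 and 19.9 CPM in PBS replicates 1 and 2 and at 2.79 and 16.3 CPM in cetuximab replicates 1 and 2. ETV4 also followed the replicate number, but with the higher values in replicate 1, at 15.1 and 7.80 CPM untreated and 12.5 and 5.22 CPM treated. ETV5 was at 14.4 and 6.14 CPM untreated and at 16.3 and 7.96 CPM treated, higher in both pairs. DUSP4 was also higher in both pairs but low throughout, at 2.39 and 1.56 CPM untreated and 3.12 and 2.00 CPM treated. The log2 fold changes were −0.53 ± 0.76 for DUSP5, −0.38 ± 0.45 for ETV4, 0.24 ± 0.44 for ETV5 and 0.37 ± 0.48 for DUSP4, and their FDRs were all 1.

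Of the inhibitors in SCC25, SPRED2 was at 28.0 and 18.3 CPM in the PBS replicates and at 19.3 and 17.0 CPM in the cetuximab replicates (log2 fold change −0.35 ± 0.25, FDR 0.984). SPRED1 was at 8.26 and 4.23 CPM untreated and at 7.89 and 6.78 CPM treated, and SPRY2 at 3.45 and 1.59 CPM untreated and at 3.08 and 2.79 CPM treated. SPRY4 was at 1.63 and 0.466 CPM untreated and at 1.43 and 0.849 CPM treated. For all 3 of these genes the treated values lay inside the untreated range.

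**Figure D2:**
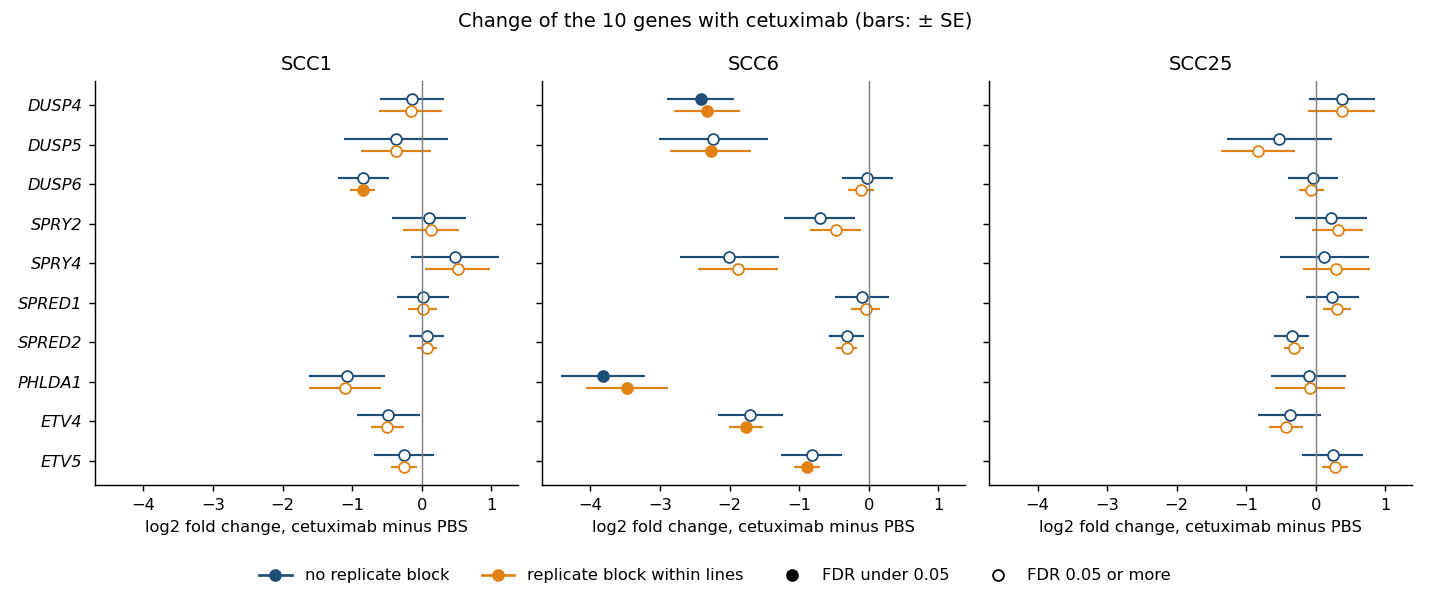
Log2 fold change (cetuximab minus PBS) ± SE of each gene in the 3 lines, without a replicate block (blue) and with a block for replicate number within each line (orange), filled where the edgeR FDR is under 0.05. In SCC6 the fit without the block fills 2 genes and the blocked fit 5, in SCC1 the blocked fit fills DUSP6, and in SCC25 no symbol is filled.

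Counted without a test, the cetuximab samples lay wholly below the PBS samples for 5 of the 10 genes in SCC1, 6 in SCC6 and 0 in SCC25. Over all genes tested the matching shares were 20.4%, 21.4% and 15.3%. No gene of the 10 lay wholly above in any line, against 22.3%, 25.5% and 14.4% of all genes. Over the 10 genes the median log2 fold change came to −0.20 for SCC1, −1.26 for SCC6 and 0.04 for SCC25, where the medians of all genes were 0.00, 0.00 and −0.01.

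PHLDA1, DUSP5 and ETV4 were lower in the treated member of 6 of 6 replicate pairs, as were 10.6% of all genes tested. For PHLDA1 the difference in replicate 2 of SCC25 was only −0.0019 log2 CPM, so that this pair was nearly equal. SPRED2 was lower in 5 pairs, DUSP6 and ETV5 in 4, and DUSP4, SPRY2, SPRY4 and SPRED1 in 3. For the effect common to the 3 lines, the log2 fold change was −0.84 ± 0.30 for ETV4 (edgeR FDR 0.133), −1.59 ± 0.59 for PHLDA1 (FDR 0.147) and −1.03 ± 0.48 for DUSP5 (FDR 0.251). ETV4 lay nearest to the threshold under the block, at an FDR of 0.0541. Thus 0 of the 10 passed across lines by edgeR, with a background of 3.67% (11.6% with the block), 2 had an unadjusted p under 0.05, and DESeq2 called 0, with a background of 9.9%.

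Whether the change differed between lines was tested as an interaction of line and treatment. Without the block the lowest values belonged to PHLDA1 (edgeR FDR 0.353) and DUSP4 (FDR 0.398). Under the block the FDRs of these genes were 0.127 and 0.144, and that of ETV5 lay between them. In the blocked fit 6 of the 10 had an unadjusted p under 0.05, as did 3289 of the 17897 genes tested. The count passing was 0 of 10 in both edgeR fits, with backgrounds of 0% and 1.29%, 2 of the 10 had an unadjusted p under 0.05 without the block, and DESeq2 called these same 2 genes (FDR 0.0028 for PHLDA1 and 0.0139 for DUSP4, with 1.54% of all genes called). PHLDA1 and DUSP4 also passed in edgeR without the filter on low counts, so that their difference between lines depended on the fit.

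The untreated levels from which these changes began differed between the lines, for 6 of the 10 genes between SCC6 and SCC1, 6 between SCC25 and SCC1 and 4 between SCC25 and SCC6. Background shares for the same 3 contrasts were 40.2%, 40.8% and 40.9% of all genes. With the block the counts were 8, 7 and 7, with backgrounds of 57.5%, 58.8% and 58.1%.

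DUSP4 was ordered SCC6, SCC1, SCC25 in the untreated samples, with a mean of 83.3 ± 52.9 CPM (SD, n = 2) in SCC6, 7.02 ± 0.276 CPM in SCC1 and a lowest single value of 1.56 CPM in SCC25. Each step passed, at a log2 difference of 3.57 ± 0.51 for SCC6 minus SCC1 (edgeR FDR 0.0004) and −1.83 ± 0.48 for SCC25 minus SCC1 (FDR 0.0125). PHLDA1 was high in SCC6 and SCC25, at 3.21 ± 0.59 and 3.07 ± 0.58 above SCC1 on the log2 scale (FDR 0.0017 and 0.0022), and its levels in SCC25 and SCC6 did not differ beyond their spread (−0.14 ± 0.54, FDR 0.857). SPRY2, at chromosome 13 from 80335976 to 80341126, was highest in SCC6, by 2.78 ± 0.55 over SCC1 (FDR 0.0026), and SCC25 differed from SCC6 by −1.82 ± 0.52 (FDR 0.0186).

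ETV4 and ETV5 were highest in untreated SCC1. On the log2 scale the difference from SCC1 in ETV4 was −1.30 ± 0.46 for SCC6 (edgeR FDR 0.0427) and −2.16 ± 0.47 for SCC25 (FDR 0.0046). In ETV5 it was −1.75 ± 0.45 for SCC6 (FDR 0.0110) and −2.32 ± 0.46 for SCC25 (FDR 0.0028). SCC25 and SCC6 were not separated without the block for ETV4 (FDR 0.159) or ETV5 (FDR 0.338). With the block both passed as lower in SCC25 than in SCC6, among 5 of the 10 genes that did. DUSP5 was lower in SCC25 than in SCC1 (−2.82 ± 0.80, FDR 0.0177), and SCC6 lay between, not separated from either neighbour without the block (FDR 0.228 and 0.125).

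DUSP6 and SPRED2 had their lowest untreated level in SCC6. DUSP6 was higher in SCC25 than in SCC6 by 1.99 ± 0.38 (edgeR FDR 0.0022) and than in SCC1 by 1.08 ± 0.37 (FDR 0.0378), while SCC6 and SCC1 were not separated (FDR 0.0724). SPRED2 was lower in SCC6 than in SCC1 (−1.68 ± 0.26, FDR 0.0006) and higher in SCC25 than in SCC6 by 1.62 ± 0.26 (FDR 0.0008), and SCC25 and SCC1 did not pass (FDR 0.853). SPRED1 and SPRY4 did not pass in any of the 3 contrasts without the block, the fit to which the FDRs of this paragraph belong. With the block 5 of the 10 genes passed as lower in SCC25 than in SCC1, against 4 without it. SPRED1, SPRY4 or SPRED2 thus passed there as well.

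UMIs of the 10 genes were also counted in single cells after each cell was thinned to 15000 UMIs, which left out 851 shallower cells, 262 of them from SCC6 cetuximab replicate 1. The mean number of UMIs of the 10 genes per cell was 13.0 and 4.06 in the SCC6 PBS replicates and 1.19 and 1.91 in the SCC6 cetuximab replicates. Cetuximab cells thus carried 9.19% of the PBS number in pair 1 and 47.0% in pair 2. In SCC1 the means were 5.60 and 4.98 untreated and 3.99 and 4.23 treated, which is 71.3% and 85.0% in the pairs. In SCC25 they were 9.54 and 6.55 untreated and 8.31 and 6.98 treated, which is 87.1% and 107% in the pairs, so that only in SCC25 did the groups overlap.

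A large part of these UMIs came from PHLDA1 in SCC6 and SCC25 and a small part in SCC1. PHLDA1 supplied 74.8% and 54.8% of these UMIs in the SCC6 PBS replicates and 31.5% and 29.4% in the cetuximab replicates. It supplied 73.5% to 80.4% in the SCC25 samples and 8.57% to 16.3% in the SCC1 samples. Without PHLDA1, the mean of the other 9 genes in SCC6 was 3.27 and 1.83 UMIs per cell in the PBS replicates and 0.816 and 1.35 in the cetuximab replicates, and the groups still did not overlap.

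**Figure D3:**
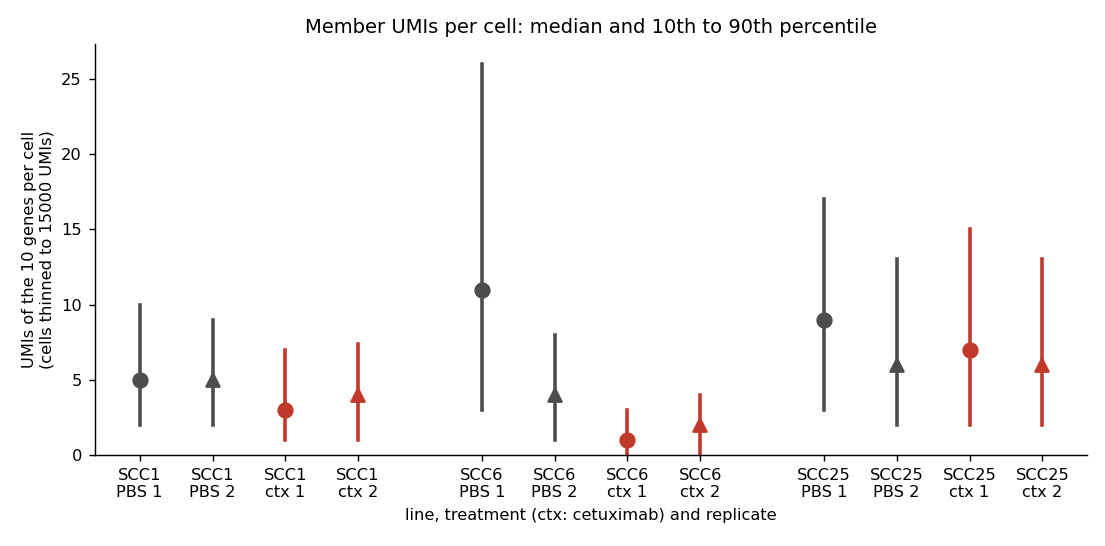
UMIs of the 10 genes per cell in each sample, after thinning each cell to 15000 UMIs, with a symbol at the median cell and a bar from the 10th to the 90th percentile, PBS in grey and cetuximab in red. The SCC6 cetuximab medians are 1 and 2 UMIs against 11 and 4 in the PBS replicates, and the SCC25 bars of both treatments cover nearly the same range.

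In SCC6 the counts of single cells were lower with cetuximab, but those of replicate 2 overlapped widely. The 10th to 90th percentiles in replicate 1 were 3 to 26 UMIs with PBS and 0 to 3 with cetuximab. In replicate 2 they were 1 to 8 and 0 to 4. No UMI of any of the 10 genes was seen in 1.85% and 5.42% of the cells of the SCC6 PBS replicates and in 38.1% and 24.0% of those of the cetuximab replicates. A count at or above 7.5 UMIs, the mean of the medians of the PBS replicates, was found in 64.2% and 11.5% of the PBS cells and in 0.347% and 1.04% of the cetuximab cells. In SCC1 the same mean of medians, 5 UMIs, was reached by 58.7% and 50.3% of untreated and 35.1% and 39.7% of treated cells, and in SCC25 the mean of medians, 7.5 UMIs, was reached by 58.2% and 34.8% of untreated and 48.6% and 37.4% of treated cells.

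PHLDA1 was detected in 86.0% ± 12.3 of the SCC6 PBS cells (SD, n = 2) and in 29.9% ± 7.25 of the cetuximab cells, against 94.7% ± 4.14 and 94.7% ± 2.75 in SCC25 and 43.1% ± 2.72 and 23.4% ± 6.09 in SCC1. DUSP4 was detected in 52.0% ± 15.5 of the SCC6 PBS cells and in 17.7% ± 6.26 of the cetuximab cells, and ETV4 in 22.3% ± 0.994 and 8.32% ± 3.25. DUSP6 in SCC1 was detected in 26.3% ± 0.408 and 17.6% ± 1.62. These shares stood far above those of PTPRC, CD3E, ALB and HBB, which carcinoma cells should lack, and of PECAM1 (at most 0.320%). They did not all stand above CD68, COL1A1 and COL3A1 of the same marker list, which reached 87.1%, 24.7% and 8.28% in single samples. The share of SCC6 cells with SPRY4 was 1.22% ± 0.510 untreated and 0.271% ± 0.220 treated, the latter near the highest share of PECAM1 in any sample.

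Genes of the cell cycle lay lower with cetuximab too, most of all in SCC1. For the 22 genes of a proliferation list, the median log2 fold change came to −1.12 (SCC1), −0.45 (SCC6) and −0.48 (SCC25). Under the block 22, 8 and 0 of them fell in these lines, where 1.99% of all genes fell in SCC1 and 10.1% in SCC6, and without it 0 were called in each, with 17, 0 and 1 at an unadjusted p under 0.05 in edgeR and 6, 0 and 0 called by DESeq2. Across the lines 2 of the 22 fell without the block (BUB1 and TPX2, named after their values were seen), 19 with it and 12 by DESeq2, with 3.67%, 11.6% and 9.9% of all genes called. Their summed level in SCC6 was 2592 and 4068 CPM in the PBS replicates and 1993 and 2595 CPM in the cetuximab replicates. The SCC6 cells were split by their UMIs of that list. In the third of the cells with the fewest such UMIs, the log2 fold change was −4.29 ± 0.64 for PHLDA1 (edgeR FDR 0.0113) and −2.44 ± 0.46 for DUSP4 (FDR 0.0251). In the third with the most, it was −3.38 ± 0.53 for PHLDA1 (FDR 0.0123) and −2.54 ± 0.47 for DUSP4 (FDR 0.0193). ETV4 passed in the third with the most (−1.52 ± 0.35, FDR 0.0424) and not in that with the fewest (−1.71 ± 0.57, FDR 0.153).

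**Figure D4:**
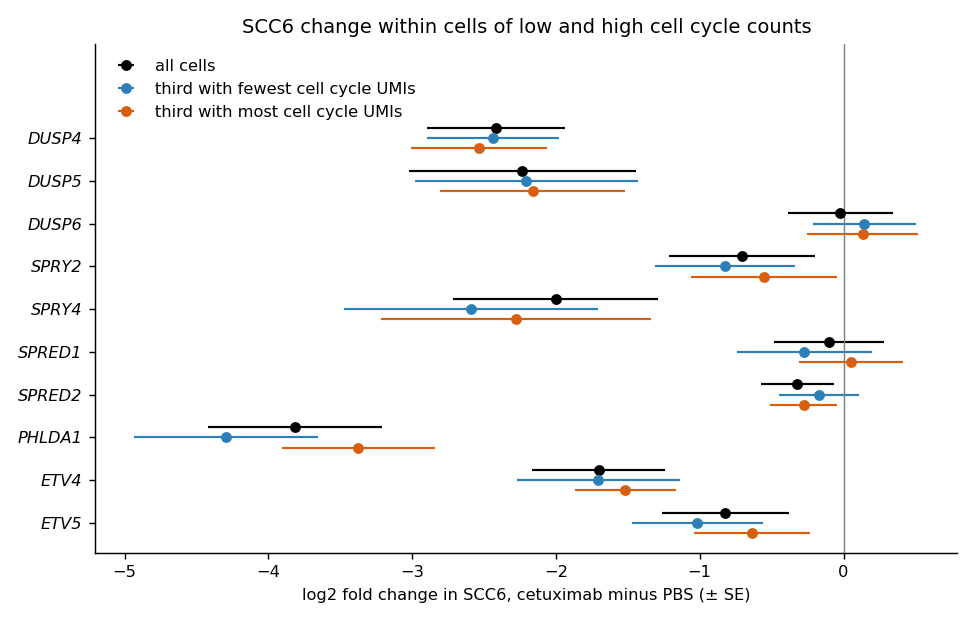
Log2 fold change ± SE of each gene in SCC6 for all cells (black), the third of the cells with the fewest cell cycle UMIs (blue) and the third with the most (orange). The 3 values of PHLDA1 lie between −4.29 and −3.38 and those of DUSP4 between −2.54 and −2.42, and the values of DUSP6 lie close to 0.

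In SCC6, CD68 fell and COL1A1 and COL3A1 rose with cetuximab, although the list of other cell types summed to only 31.5 and 16.1 CPM in the PBS replicates and 28.6 and 25.0 CPM in the cetuximab replicates. COL1A1 was at 1.03 and 2.75 CPM untreated and 22.6 and 18.8 CPM treated (edgeR log2 fold change 3.45, FDR 0.0063), and COL3A1 at 0 and 0.207 CPM untreated and 2.65 and 2.01 CPM treated (FDR 0.0214). CD68 was at 30.5 and 13.2 CPM untreated and at 3.30 and 4.14 CPM treated (FDR 0.0202). The squamous markers of SCC6 moved as well, with a summed level of 1481 and 1228 CPM in the PBS replicates and 2652 and 3306 CPM in the cetuximab replicates. Of the 11, KRT17 rose (log2 fold change 1.64 ± 0.39, edgeR FDR 0.0463) and KRT6A fell (−2.60 ± 0.27, FDR 0.0037), where 3.81% of all genes were called. With the block 6 rose and 2 fell, where 20.1% of all genes were called. The part of these marker changes in the fall of PHLDA1 and DUSP4 was not tested.

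The promoters of 3 genes are shown because PHLDA1 and SPRY4 lay lower with cetuximab in SCC6 whereas DUSP6 did not. RefSeq's GRCh38.p14 table held promoters for 6 of the 10 genes, in 9 windows. DUSP4, DUSP5, ETV4 and ETV5 were not matched. Each line gives the 250 bases before an annotated start, 5′ to 3′ on the strand of the gene, which is the minus strand in all 3 cases. The window of PHLDA1 is chr12:76031777-76032026, that of SPRY4 is chr5:142324248-142324497 and that of DUSP6 is chr12:89352502-89352751, and capitals mark the motif matches named below.
PHLDA1: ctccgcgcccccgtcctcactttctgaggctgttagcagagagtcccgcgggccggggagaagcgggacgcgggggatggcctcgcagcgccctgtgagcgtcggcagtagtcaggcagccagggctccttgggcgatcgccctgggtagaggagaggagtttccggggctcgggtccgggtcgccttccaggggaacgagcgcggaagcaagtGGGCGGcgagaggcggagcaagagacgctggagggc
SPRY4: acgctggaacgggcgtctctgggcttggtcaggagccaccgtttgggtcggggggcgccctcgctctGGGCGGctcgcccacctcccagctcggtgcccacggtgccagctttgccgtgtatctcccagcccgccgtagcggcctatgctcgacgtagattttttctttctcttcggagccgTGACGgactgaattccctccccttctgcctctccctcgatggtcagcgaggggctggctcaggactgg
DUSP6: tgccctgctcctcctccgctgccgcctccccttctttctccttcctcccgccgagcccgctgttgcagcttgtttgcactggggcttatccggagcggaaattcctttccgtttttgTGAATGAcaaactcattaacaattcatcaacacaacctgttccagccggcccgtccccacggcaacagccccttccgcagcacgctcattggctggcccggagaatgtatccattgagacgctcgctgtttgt

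For 4 motifs bound by factors that act at or below ERK, 1 fixed spelling each was searched. None of these spellings was found in any of the 9 windows on either strand. These were the cyclic AMP response element TGACGTCA, the AP-1 site TGANTCA, the ETS site CCGGAAG and the Capicua (CIC) site TGAATGNA, which are found in 1.65%, 6.57%, 8.52% and 3.25% of all 35116 promoter windows of that length. A shorter CIC form, TGAATGN, had been searched before that, and 3 common promoter motifs were added once the 4 had given no match. The shorter form overlaps the CIC site and was found in DUSP6 from 133 to 127 bases before the start and in 1 window of SPRED2, and in 9.88% of all windows. The half-site TGACG was found in SPRY4 from 68 to 64 bases before the start and in SPRY2 (21.2% of all windows), the GC box GGGCGG in PHLDA1 from 36 to 31 and in SPRY4 from 183 to 178 bases before the start, and also in SPRY2 and SPRED1 (42.6%), and the TATA box TATAAA in SPRED2 (10.7%). A match says only that the letters are present in these 250 bases. The lack of a match does not show that a factor has no site there. Any CIC site that begins otherwise than TGAATG was not searched.

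The other genes of the pathway were read from lists of its parts. Without the block 3.81% of all genes were called in SCC6. Among the 23 genes of the cascade from receptor to ERK and its kinases, 1 was higher and 0 were lower in SCC6. This was KSR1, a scaffold that brings RAF and MEK together, at 1.43 and 2.01 CPM untreated and 8.67 and 6.54 CPM treated (log2 fold change 2.14 ± 0.32, edgeR FDR 0.0090). With the block, 5 were higher (GAB1, KSR1, RASA1, SOS1 and SOS2) and 1 was lower (RPS6KA1), all but KSR1 named after their values were seen. These 6 of 23 stand against 20.1% of all genes called in that fit, so that the share is near the background. The median of the cascade list was −0.13 on the log2 scale in SCC6. In SCC1 and SCC25, 0 of the 23 passed in either fit by edgeR or with DESeq2, and 1 and 0 had an unadjusted p under 0.05 without the block.

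Of 14 further feedback genes, PHLDA2, a relative of PHLDA1, was the 1 that fell in SCC6, from 131 and 97.8 CPM in the PBS replicates to 30.9 and 48.8 CPM in the cetuximab replicates (log2 fold change −1.52 ± 0.32, edgeR FDR 0.0304). In that fit 3.81% of all genes were called in SCC6 and 1.3% were lower. With the block 4 fell, namely DUSP2, DUSP9, ERRFI1 and PHLDA2, of which the first 3 were named after their values were seen. The blocked fit called 20.1% of all genes in SCC6, and 10.1% were lower. ERRFI1, an inhibitor that binds the receptor itself, was at 123 and 41.2 CPM untreated and at 26.3 and 27.5 CPM treated (blocked log2 fold change −1.41 ± 0.36, FDR 0.0299). In SCC1 the blocked fit called DUSP9 lower and DUSP8 higher, and in SCC25 it called DUSP8 and DUSP16 higher, all named after their values were seen. That fit called 4.45% of all genes in SCC1 and 0.978% in SCC25. DUSP8 and DUSP16 act mainly on the stress kinases JNK and p38, and DUSP9 acts on ERK. DUSP8 in SCC25 was at 0.673 and 0.603 CPM untreated and at 2.60 and 3.21 CPM treated.

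Of 21 further output genes, 5 fell and 1 rose in SCC6 by edgeR without the block. The growth factor genes AREG, EREG and HBEGF encode ligands of the receptor family. AREG was at 617 and 128 CPM in the PBS replicates and at 7.57 and 24.6 CPM in the cetuximab replicates (log2 fold change −4.53 ± 0.78, FDR 0.0162), EREG at 221 and 105 CPM and at 8.44 and 22.9 CPM (−3.38 ± 0.57, FDR 0.0144), and HBEGF at 147 and 23.4 CPM and at 5.34 and 13.3 CPM (−3.19 ± 0.76, FDR 0.0481). FOSL1, a part of the AP-1 factor, and MYC fell as well, with log2 fold changes of −2.97 ± 0.70 (FDR 0.0456) and −1.83 ± 0.42 (FDR 0.0407). EPHA4, an ephrin receptor, rose (2.15 ± 0.47, FDR 0.0339). With the block 8 fell, HBEGF no longer passed (FDR 0.0516), and HMGA2, PLAUR, TGFA and UPP1 joined, named after their values were seen. Of all genes, 3.81% were called in SCC6 without the block and 1.3% were lower. With the block 20.1% were called and 10.1% were lower.

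The output list had a median of −0.84 in SCC6, where that of the 10 genes was −1.26, and −0.10 and −0.18 in SCC1 and SCC25. Across the lines EREG fell without the block (log2 fold change −1.96 ± 0.45, edgeR FDR 0.0354), with no other of the 21 called and 3.67% of all genes called. With the block EREG, ETV1, HMGA2 and UPP1 fell, where 11.6% of all genes were called. In SCC1 and SCC25, 0 of the 21 passed without the block, with 3 and 1 at an unadjusted p under 0.05, and DESeq2 called 0 in each. Under the block HMGA2 fell in SCC1 (FDR 0.0112), where 4.45% of all genes were called and 1.99% were lower.

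To describe how the 10 genes vary together, their log2 CPM was centred within each line over the 12 samples. The correlation of each gene with the mean of the other 9 was 0.955 for DUSP4, 0.927 for PHLDA1, 0.836 for SPRY4, 0.819 for ETV4, 0.676 for ETV5, 0.550 for SPRY2, 0.503 for SPRED2, 0.480 for DUSP5, 0.280 for SPRED1 and 0.107 for DUSP6. These are descriptions over 12 samples that share lines, libraries and depth, and the widest swings come from the 4 SCC6 samples. Among 6064 genes of sufficient level, the 8 with the pattern most like the mean of the 10 were AREG (r = 0.982), PRELID3B (0.968), ASB1 (0.967), SNHG15 (0.961), DCTD (0.952), FOSL1 (0.950), RRP8 (0.949) and FAM210A (0.948). Of these 8, AREG and FOSL1 passed the edgeR test in SCC6, and SNHG15 was nearest to it among the rest (log2 fold change −1.16 ± 0.28, FDR 0.0508). The 8 were picked by their pattern over these same samples, so that a fall in SCC6 was partly fixed by the choice. These FDRs are therefore no separate evidence.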

How the data were processed

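The 12 samples were grouped by the line, treatment and replicate number of their labels. The authors deposited raw UMI counts per gene and cell, 1 table per line. The submitters' processing notes name Cell Ranger and GRCh38, and the methods of the study name CellRanger for filtering and alignment and Monocle 3 alpha for later steps. The deposited counts are whole numbers and were not normalised further. The Cell Ranger version and the annotation are not given in the sources used here. Counts of 24 symbols found more than once were added up. Cells were assigned to samples by the deposited cell tables, which left no cell unassigned.

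Counts were summed per sample over all deposited cells, with no filter on cells and no doublet caller. The test was edgeR's quasi-likelihood F-test (edgeR 4.0.16, R 4.3.3, TMM, filterByExpr, a mean for each of 6 groups, 6 residual degrees of freedom), and p-values were adjusted by the Benjamini-Hochberg method over all 17897 genes tested (FDR, threshold 0.05). Fits with a replicate block have fewer than these 6 residual degrees of freedom. All 10 genes passed the filter on low counts. The effect across lines came from a fit with line and treatment. SE is the absolute log2 fold change divided by the square root of F. Alternatives were RLE factors, no filter, DESeq2 1.42.0, replicate blocks, single-line fits, each sample left out, and subsets of cells. In the fit of each line alone the test has 2 samples against 2.

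The replicate numbers were checked as pairs by the correlation of deviations from the group means over 7558 genes of 10 CPM or more. The 3 values were 0.676 (SCC1), 0.630 (SCC6) and 0.722 (SCC25), each over 0.1, and the numbers were taken to pair the samples. Whether replicates are separate cultures is not clear, since the design describes duplicate treatment and the methods duplicate sequencing. If they are not, the p-values cover only the spread between libraries. The cell-level measures used cells thinned to 15000 UMIs. The depth of 57057402 UMIs or more per sample leaves counting error small for all but rare genes such as SPRY4. The code was tested on simulated data. All 10 genes are named whatever their values. Genes of the lists of the cascade and of further feedback and output genes are named where they passed in a cetuximab contrast, untreated contrasts not being used for naming, and the 8 most alike genes were taken by Pearson r. The members, lists and tests were chosen with earlier results of these data known.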

Additional observations from a re-analysis of the deposited data

Results flagged for a closer look

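For 3 genes, both pairs of one line moved one way with cetuximab and both pairs of another moved the opposite way. DUSP4 was higher in both SCC25 pairs and lower in both SCC6 pairs, and the edgeR interaction of line and treatment gave it an FDR of 0.398. SPRY4 was higher in both SCC1 pairs and lower in both SCC6 pairs, with an interaction FDR of 0.701. ETV5 was higher in both SCC25 pairs and lower in both pairs of SCC1 and SCC6, with an interaction FDR of 0.954. None of the 3 interactions passed in the edgeR fit without the block, and with the block their FDRs were 0.144 for DUSP4, 0.209 for SPRY4 and 0.134 for ETV5. With 2 samples per group, no single sample could be tested as standing apart from its group.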

How the results depend on the processing

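Without the block, with all cells, the counts called by edgeR were 0 of the 10 genes in SCC1, 2 in SCC6, 0 in SCC25, 0 across the lines and 0 for the interaction, and 3, 682, 0, 656 and 0 of all genes. Without the filter on low counts they were 5 of the 10 in SCC6, 1 across the lines and 2 for the interaction, with 243, 1233, 128, 1043 and 248 of all genes in the same order. DESeq2 called 5 of the 10 in SCC6 and 2 for the interaction, with 274, 1671, 101, 1771 and 276 of all genes. With the replicate block within lines the counts were 1 of the 10 in SCC1, 5 in SCC6 and 7 for untreated SCC25 minus SCC6 (4 without it), and 797, 3589, 175, 2073 and 230 of all genes, and the block changed no other count of the 10 genes by over 1.5 times. With a block shared by the lines 4 of the 10 passed in SCC6, and 133, 2462, 29, 2070 and 18 of all genes passed. Each line fitted alone gave 1 of the 10 in SCC6, with 0 of all genes in SCC1 and 265 in SCC6. Of all genes, the cells with the fewest cell cycle UMIs gave 1 in SCC1, 399 in SCC6 and 2 in SCC25, those with the most gave 0 in SCC1, 75 across the lines and 4 for the interaction, and leaving out the cells with most UMIs gave 1 in SCC25. With 1 sample left out, the lone sample being assumed to vary like the other groups, 0 to 3 of the 10 passed in SCC6 and 0 to 1 for the interaction, and the counts of all genes ran from 0 to 6 in SCC1, 11 to 749 in SCC6, 0 to 1 in SCC25, 202 to 596 across the lines and 0 to 14 for the interaction. Fits on fewer samples or cells have less to test with; for the other changes the cause was not tested.

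Signs reversed only for fold changes that did not pass. In the cells with the fewest cell cycle UMIs the log2 fold change was −0.0038 for SPRED1 in SCC1, 0.15 for DUSP6 in SCC6, 0.017 for DUSP6 in SCC25 and −0.18 for SPRED1 in untreated SCC25 minus SCC6. In those with the most it was 0.53 for DUSP4 and −0.21 for SPRED1 in SCC1, 0.13 for DUSP6 and 0.052 for SPRED1 in SCC6, −0.043 for SPRED1 in SCC25, −0.068 for SPRED1 across the lines and 0.15 for PHLDA1 in untreated SCC25 minus SCC6. That last contrast gave −0.0029 for SPRED1 without the filter and 0.048 for PHLDA1 with the block. With 1 sample left out, SCC1 values ran from −0.41 to 0.069 for DUSP4, −0.17 to 0.43 for SPRY2, −0.29 to 0.27 for SPRED1 and −0.075 to 0.22 for SPRED2. SCC6 values ran from −0.74 to 0.45 for DUSP6, −1.33 to 0.40 for SPRY2 and −0.48 to 0.41 for SPRED1. SCC25 values ran from −2.30 to 0.34 for DUSP5, −0.38 to 0.25 for DUSP6, −0.23 to 0.88 for SPRY2, −0.52 to 1.28 for SPRY4, −0.17 to 0.79 for SPRED1, −0.33 to 0.17 for PHLDA1, −1.12 to 0.18 for ETV4 and −0.35 to 0.98 for ETV5. Across the lines they ran from −0.30 to 0.23 for SPRY2 and −0.076 to 0.19 for SPRED1. In untreated SCC25 minus SCC1 they ran from −1.49 to 0.31 for SPRY4 and −0.41 to 0.20 for SPRED2, and in untreated SCC25 minus SCC6 from −0.77 to 1.22 for SPRY4, −0.54 to 0.52 for SPRED1 and −0.86 to 1.32 for PHLDA1. Without thinning, SCC25 cetuximab cells carried 116.9% of the UMIs of the 10 genes in PBS cells, a value that lay under 100% with it. Depth limits SPRY4 most, at 9 to 97 UMIs per SCC6 sample.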
